A study of Sus scrofa with 15 samples.

Results

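The genes described here are the 7 subunits of AMP-activated protein kinase (AMPK), its upstream kinase gene STK11 and both PGC-1 coactivators in pig backfat. The 10 members were chosen by name (PRKAA1, PRKAA2, PRKAB1, PRKAB2, PRKAG1, PRKAG2, PRKAG3, STK11, PPARGC1A and PPARGC1B), and ACTA1, the actin of skeletal muscle fibres, was read beside them as a check for muscle. All 10 were found among the 30477 Ensembl genes counted, and all 10 were among the 14918 genes that passed the filter on low counts. The question was whether feeding olive by-products to growing pigs altered the RNA level of this energy-sensing pathway in subcutaneous fat.

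Backfat RNA of 15 Iberian pigs was sequenced, with 1 library per pig and 5 pigs per diet. All pigs were 6.5 months old when the diets began and 12 months old when a core of dorsal lumbar fat was taken under sedation and local anaesthesia. The control diet (C) was a compound feed, DOP was a compound feed containing dry olive pulp, and WCOC was another compound feed, without by-product, given together with a free supply of silage made of wet crude olive cake and barley straw. Each diet was fed in 1 pen, so pen and diet cannot be told apart. Compound feed was restricted, to a lower share of free energy intake in DOP and WCOC than in C, and silage was not. The degree of restriction and the by-product therefore cannot be told apart against C. The 5 pigs of a diet were picked from a larger group for the amount and quality of their RNA. The libraries held between 22373715 and 34745218 counts on genes (median 28230154).

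AMPK is a trimer of a catalytic alpha, a scaffolding beta and a nucleotide-binding gamma subunit, each encoded by more than one gene. It is switched on when cellular energy runs low, through phosphorylation of alpha by STK11 (LKB1) and binding of AMP to gamma, and it then restrains lipid synthesis and favours fuel oxidation. PGC-1 alpha and PGC-1 beta, the products of PPARGC1A and PPARGC1B, are coactivators without a DNA-binding domain of their own that raise mitochondrial and fat-burning genes through nuclear receptors and other factors. In mammals the alpha2, beta2 and above all gamma3 isoforms are known as the AMPK subunits of skeletal muscle, PGC-1 alpha is abundant in oxidative muscle and brown fat, and white fat relies more on alpha1.

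In the Sscrofa11.1 annotation of RefSeq, PRKAA1 lies on chromosome 16 from 25745902 to 25783524, PRKAA2 on chromosome 6 from 155683392 to 155754283, PRKAB1 on chromosome 14 from 33201359 to 33217641 and PRKAB2 on chromosome 4 from 100378047 to 100394346. The gamma genes are PRKAG1 on chromosome 5 from 15033051 to 15049676, PRKAG2 on chromosome 18 from 5475077 to 5744761 and PRKAG3 on chromosome 15 from 120859486 to 120866308. STK11 lies on chromosome 2 from 77229888 to 77249322, PPARGC1A on chromosome 8 from 17841844 to 18527953 and PPARGC1B on chromosome 2 from 150823338 to 150924871, with the microRNA gene MIR378-1 inside it. Only PRKAB2, PRKAG2 and PPARGC1B are on the plus strand. Exons of PRKAA2 share 1423 bases with those of FYB2 on the other strand. Exons of STK11 share 531 bases with those of CBARP and 524 with those of LOC110259376, both also on the other strand. Whether the counting used strand was not given. FYB2 reached at most 0.128 CPM and CBARP 3.59 to 7.24 CPM, which does not tell whether reads in the shared bases were lost.

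The 250 bases before the start of 1 picked transcript per gene, the longest curated one, are shown for PRKAA2, PRKAB2, PPARGC1A and ACTA1, to set some of the proximal promoters side by side. Other annotated transcripts of a gene can start elsewhere. PPARGC1A has 7, and its window lies inside the annotated gene, as do those of PRKAB2 and ACTA1. They were read 5′ to 3′ on the strand of the gene from RefSeq Sscrofa11.1, and capitals mark matches to 5 short motifs searched on both strands. The muscle-specific MCAT element was searched as CATTCC. The cAMP response element was searched as TGACGTCA and the half-site of the ERR receptors as TNAAGGTCA. The core of the MEF2 site was searched with any bases at its centre, and the box bound by the TATA-binding protein as TATAAA. None of the marked matches overlap.
PRKAA2, chr6:155754245-155754494, minus strand: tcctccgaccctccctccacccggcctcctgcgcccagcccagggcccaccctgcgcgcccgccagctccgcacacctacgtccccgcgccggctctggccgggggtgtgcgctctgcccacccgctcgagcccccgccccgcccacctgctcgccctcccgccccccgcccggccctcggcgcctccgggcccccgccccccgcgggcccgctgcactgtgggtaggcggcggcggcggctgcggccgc
PRKAB2, chr4:100378294-100378543, plus strand: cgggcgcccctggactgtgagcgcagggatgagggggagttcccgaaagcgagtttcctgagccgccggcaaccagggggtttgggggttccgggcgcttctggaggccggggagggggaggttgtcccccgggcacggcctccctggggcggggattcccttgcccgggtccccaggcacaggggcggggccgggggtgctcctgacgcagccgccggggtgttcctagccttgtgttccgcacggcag
PPARGC1A, chr8:17946935-17947184, minus strand: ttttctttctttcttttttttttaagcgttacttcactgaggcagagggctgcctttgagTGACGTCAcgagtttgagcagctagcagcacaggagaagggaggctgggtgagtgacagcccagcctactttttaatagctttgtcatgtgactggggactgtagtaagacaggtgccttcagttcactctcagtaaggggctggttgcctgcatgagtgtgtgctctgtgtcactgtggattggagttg
ACTA1, chr14:60412692-60412941, plus strand: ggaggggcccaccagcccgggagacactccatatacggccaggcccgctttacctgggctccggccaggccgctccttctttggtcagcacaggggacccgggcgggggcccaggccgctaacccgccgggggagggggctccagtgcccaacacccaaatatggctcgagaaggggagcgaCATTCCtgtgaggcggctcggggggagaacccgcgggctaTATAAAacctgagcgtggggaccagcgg

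The PPARGC1A window holds 1 TGACGTCA that begins 190 bases before the start, a motif found in 1.66% of 19556 promoters of this length. ACTA1 has CATTCC 68 and TATAAA 28 bases before its start, found in 10.01% and 9.92% of promoters. The PRKAA2 and PRKAB2 windows hold none of the 5 motifs and are rich in G and C, with 83.6% and 73.2% against 48.8% for PPARGC1A. The MEF2 core, found in 2.21% of promoters, and the ERR half-site, found in 0.803%, were in none of these 4 windows. A match is a run of letters and not a shown binding site.

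Levels are given as counts scaled to library size by TMM (CPM), and levels of different genes are compared only as CPM per kb of exons. Exon lengths were taken from RefSeq whereas counts were made over Ensembl genes. Levels per kb, and the isoform shares below, are therefore approximate where the gene models differ. In the 5 control pigs STK11 was the most abundant member, at 18.03 ± 0.517 CPM per kb (mean ± SD, n = 5, as below). PRKAB1 followed at 8.67 ± 0.835 and PRKAG2 at 8.17 ± 1.25, which do not differ beyond their spread. PRKAG1 at 6.47 ± 0.933, PRKAA1 at 6.15 ± 0.825 and PRKAB2 at 5.49 ± 0.504 CPM per kb form a further run of neighbours with overlapping values. PPARGC1B stood at 3.92 ± 0.796, PRKAA2 at 1.92 ± 0.729 and PRKAG3 at 1.48 ± 2.65, the last 2 again overlapping. PPARGC1A was the lowest at 0.0424 ± 0.0123 CPM per kb, on 13 to 31 counts per control library. Dividing by the longest transcript instead of all exons moved PRKAG2 to 15.2 CPM per kb, since its 13 annotated transcripts differ much in length, and left STK11 first at 23.2.

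**Figure D1:**
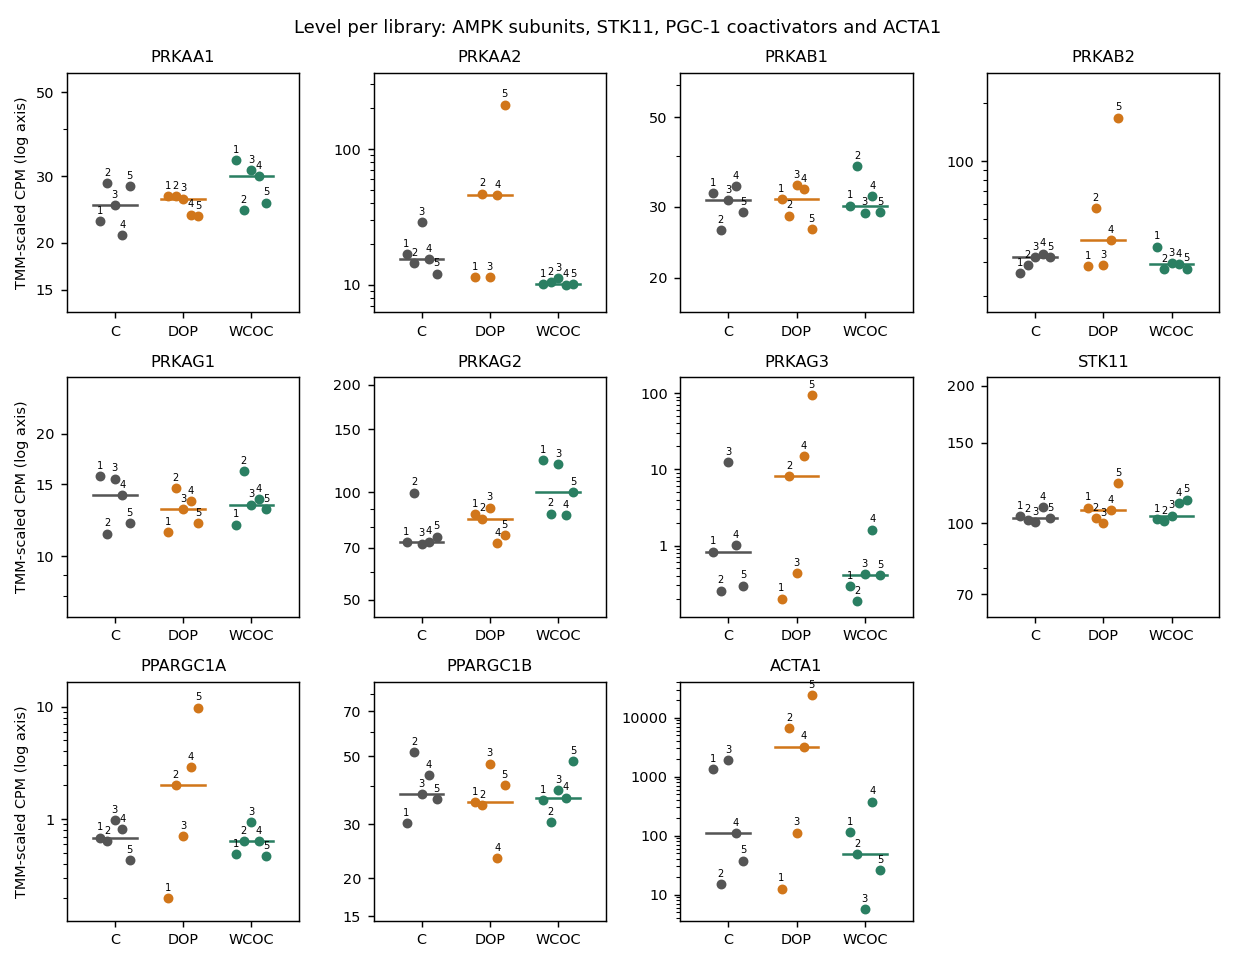
TMM-scaled CPM of the 10 members and ACTA1 (vertical log axes, each with its own range) in C, DOP and WCOC, 1 point per library labelled with its replicate number, and a line at the median of the 5 libraries. PRKAA2, PRKAB2, PRKAG3 and PPARGC1A are high in DOP replicates 2, 4 and 5, as is ACTA1, while STK11 lies between 100.1 and 122.7 CPM in every library.

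The catalytic subunits differed in how evenly they were expressed. PRKAA1, which encodes alpha1, lay between 20.9 and 28.7 CPM in C, between 23.5 and 26.6 in DOP and between 24.3 and 33.1 in WCOC, so the diets overlapped. PRKAA2, which encodes alpha2, was read at 16.8, 14.4, 29.1, 15.5 and 12.1 CPM in C replicates 1 to 5. In DOP replicates 1 to 5 it was 11.4, 47.0, 11.4, 46.0 and 213.4 CPM, so 3 DOP pigs were above every control and the other 2 were below every control. In WCOC it was 10.2, 10.4, 11.2, 10.04 and 10.1 CPM, a narrow band below every library of both other diets.

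The scaffold subunits showed the same contrast. PRKAB1, encoding beta1, ran from 26.2 to 37.8 CPM over the 15 libraries, and its diet means were alike (C 30.5 ± 2.94, DOP 30.7 ± 3.20, WCOC 31.6 ± 3.67). PRKAB2, encoding beta2, was 26.2, 28.8, 31.7, 33.1 and 31.9 CPM in C and 28.6, 57.1, 29.0, 39.0 and 168.8 CPM in DOP. In WCOC it was 36.0, 27.6, 29.7, 29.3 and 27.7 CPM, inside the span of the controls but for replicate 1.

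Among the gamma subunits PRKAG1, encoding the widely expressed gamma1, stayed between 11.4 and 16.2 CPM. PRKAG2, encoding gamma2, was 72.6, 99.9, 71.9, 72.8 and 75.1 CPM in C, 86.8, 84.5, 90.7, 72.2 and 76.1 in DOP and 123.4, 87.2, 120.1, 86.5 and 100.3 in WCOC. Control replicate 2 alone kept the C and WCOC values from separating. PRKAG3, encoding gamma3, was 0.834, 0.256, 12.6, 1.01 and 0.298 CPM in C and 0.201, 8.15, 0.432, 15.02 and 94.2 in DOP. In WCOC it was 0.295, 0.187, 0.424, 1.62 and 0.413 CPM, and the lowest libraries of all 3 diets held 5 or 6 counts.

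STK11 varied least of the 10 over the 15 libraries in proportion to its level (18.5 ± 1.05 CPM per kb), at 103.4 ± 2.97 CPM in C, 108.2 ± 8.76 in DOP and 106.2 ± 5.21 in WCOC. PPARGC1A was 0.687, 0.641, 0.987, 0.818 and 0.431 CPM in C and 0.201, 2.00, 0.7099, 2.89 and 9.80 in DOP. In WCOC it was 0.491, 0.636, 0.947, 0.635 and 0.472 CPM, and the same 3 DOP libraries that were high for PRKAA2 and PRKAG3 were again the highest. PPARGC1B, the coactivator that dominated in this fat, was 39.8 ± 8.07, 36.2 ± 8.83 and 38.0 ± 6.44 CPM in C, DOP and WCOC.

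ACTA1 spanned 5.75 to 23994 CPM. It was 1357, 14.9, 1883, 108.4 and 37.5 CPM in C, 12.6, 6543, 112.5, 3238 and 23994 in DOP, and 115.9, 48.3, 5.75, 376.7 and 26.1 in WCOC. DOP replicates 2, 4 and 5 and control replicates 1 and 3 were the 5 libraries above 1000 CPM. Of 30 skeletal muscle genes listed, 22 were matched, 21 passed the filter and TNNI2 had 0 counts in every library. Their summed level was 254 to 6522 CPM in C, 232 to 77322 in DOP and 217 to 1401 in WCOC. The 12 matched adipocyte genes summed to 20379 to 27803, 23359 to 30262 and 19987 to 29394 CPM, so every library carried strong fat markers. In tissue RNA, more cells of a type and more RNA per cell cannot be told apart.

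A gene was called a differentially expressed gene (DEG) at an adjusted p under 0.05 and a log2 fold change (log2FC) of at least 0.58 in size, with edgeR's quasi-likelihood test and Benjamini-Hochberg adjustment over all 14918 genes. The 3 comparisons share libraries, since each diet enters 2 of them. Log2FC is given ± its standard error (SE).

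In DOP vs. C, 0 of the 10 members were DEGs by edgeR, beside 0.764% of all genes. The 4 members with the largest log2FC were all higher in DOP: PRKAG3 at 2.95 ± 1.35 (adjusted p = 0.270), PPARGC1A at 2.12 ± 0.70 (adjusted p = 0.147), PRKAA2 at 1.90 ± 0.63 (adjusted p = 0.148) and PRKAB2 at 1.09 ± 0.39 (adjusted p = 0.173). These 4 had an unadjusted p under 0.05, as did 17.6% of all genes (9.6% higher in DOP), and the DOP and C values separated in none of them, against 3.47% of all genes. DESeq2 on the same counts called 1 member, PPARGC1A (adjusted p = 0.0330), beside 507 of 22840 genes. PRKAA2, PRKAB2 and PRKAG3 had DESeq2 adjusted p of 0.0600, 0.0656 and 0.179 and were not called. The paper, with its own DESeq2 run, describes all 4 as overexpressed in DOP. The other 6 members had log2FC between −0.14 and 0.06, with SE up to 0.18. The median log2FC of the members was 0.06, against 0.01 over all genes. The flow cell of all DOP libraries held only replicate 5 of the controls, so flow cell and diet can hardly be told apart here.

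The muscle genes went the same way as the 4 members with the largest log2FC, and a cause was not tested. ACTA1 itself had a log2FC of 3.32 ± 1.67 in DOP vs. C (adjusted p = 0.321), and all 21 tested muscle genes had a positive log2FC with 0 called. Leaving out DOP replicate 5 alone gave the lowest of the 10 leave-one-out values, 0.97 for PRKAG3, 1.01 for PPARGC1A, 0.71 for PRKAA2 and 0.34 for PRKAB2. Leaving out control replicate 3 raised PRKAG3 to 5.29. Without the 5 libraries above 1000 CPM of ACTA1 the log2FC turned to −0.69 for PRKAG3, −0.43 for PPARGC1A, −0.30 for PRKAA2 and −0.13 for PRKAB2. That fit kept DOP replicates 1 and 3 and control replicates 2, 4 and 5, and it called 0 of 15333 genes in DOP vs. C. With the mean level of the muscle list as a covariate the values were 0.07, 0.69, 0.56 and 0.47 in the same order, with adjusted p from 0.578 to 0.979.

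In WCOC vs. C, 0 of the 10 members were DEGs by edgeR, beside 6.25% of all genes, and DESeq2 called 0 as well, beside 1219 of 22840 genes. PRKAG2 came nearest the limit on p and was 1.32-fold higher in WCOC, with a log2FC of 0.40 ± 0.12 (adjusted p = 0.0508), below the limit on size. It was the 1 member with an unadjusted p under 0.05, where 13.2% of all genes were higher at that limit. PRKAA2 was the 1 member whose values did not overlap, as in 3.87% of all genes with the lower values in WCOC, with a log2FC of −0.76 ± 0.62 (adjusted p = 0.459). The fit shares its spread with the uneven DOP libraries. In a fit of C and WCOC alone, which called 766 of 14553 genes, PRKAA2 was a DEG (log2FC −0.77, adjusted p = 0.0453). On flow cell A alone, where 486 of 14698 genes were called, it was a DEG as well (−0.88, adjusted p = 0.0334). Without the 5 libraries above 1000 CPM of ACTA1 its log2FC was −0.44 (adjusted p = 0.0707), and with the muscle list as a covariate it was −0.22 (adjusted p = 0.771). The muscle genes went the same way, and a cause was not tested. ACTA1 had a log2FC of −2.57 ± 1.62 (adjusted p = 0.331), and all 21 tested muscle genes had a negative log2FC (median −2.51) with 0 called. The other members, PRKAG3 aside (−2.35 ± 1.44, adjusted p = 0.315, and −0.01 without control replicate 3), had log2FC between −0.17 and 0.19.

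**Figure D2:**
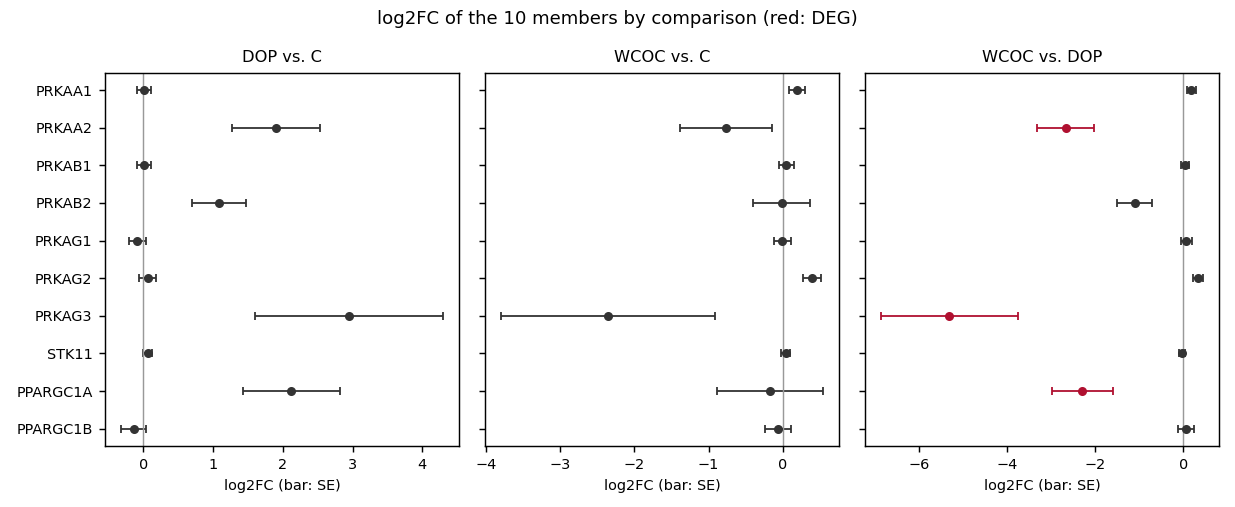
Log2FC (horizontal axis, a separate range per panel) of the 10 members, 1 panel per comparison, with bars of 1 SE from the edgeR fit and DEGs in red. PRKAA2, PRKAG3 and PPARGC1A are red in WCOC vs. DOP, at −2.66, −5.31 and −2.29, and no member is red in either comparison with C.

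WCOC vs. DOP compares the libraries of both olive diets directly, and 3 of the 10 members were DEGs, beside 7.76% of all genes. All 3 were lower in WCOC, as were 5.11% of all genes. PRKAA2 was 6.34-fold lower in WCOC (log2FC −2.66 ± 0.65, adjusted p = 0.0189), without overlap between the diets (lower without overlap in 4.77% of all genes), and it remained a DEG in 10 of 10 leave-one-out fits. PRKAG3 was 39.5-fold lower (log2FC −5.31 ± 1.55, adjusted p = 0.0378) and PPARGC1A 4.89-fold lower (log2FC −2.29 ± 0.70, adjusted p = 0.0438). PRKAG3 and PPARGC1A were DEGs in 2 of 10 leave-one-out fits, those without DOP replicate 1 or 3, the DOP libraries with little muscle RNA. Without any 1 of the other 8 libraries the adjusted p lay between 0.0532 and 0.130 for PRKAG3 and between 0.0611 and 0.179 for PPARGC1A, highest without DOP replicate 5, and the values of both diets overlapped. PRKAB2 had a log2FC of −1.10 ± 0.39 (adjusted p = 0.0787) and PRKAG2 one of 0.34 ± 0.12 (adjusted p = 0.0859). The remaining 5 members had log2FC between −0.03 and 0.19, with adjusted p from 0.267 upwards.

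The muscle genes went the same way as these calls, and a cause was not tested. Of the 21 tested, 15 were lower DEGs in WCOC vs. DOP and all 21 had a negative log2FC. ACTA1 had a log2FC of −5.89 ± 1.88 (adjusted p = 0.0532). With the muscle list as a covariate 0 members were DEGs, beside 443 of 14918 genes. The log2FC was then −0.78 for PRKAA2, −0.14 for PRKAG3 and −0.27 for PPARGC1A. Without the 5 libraries above 1000 CPM of ACTA1 it was −0.14 for PRKAA2, 0.87 for PRKAG3 and 0.44 for PPARGC1A. Again 0 members were DEGs, beside 92 of 15333 genes, in a fit that kept only DOP replicates 1 and 3 of that diet. All DOP libraries and control replicate 5 were read on 1 flow cell and the other 9 libraries on another. No flow cell held both DOP and WCOC libraries, so flow cell and diet can hardly be told apart between them. A fit with flow cell as a covariate takes its flow cell effect only from control replicate 5 against the other controls. With flow cell as a covariate the log2FC of the 3 DEGs was larger in size (−3.32 for PRKAA2, −8.93 for PRKAG3 and −3.15 for PPARGC1A), but this fit called 1 of 14918 genes in all and 0 members.

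The isoform make-up of AMPK, read from RNA and not from protein, followed the same libraries. Taking each gene's CPM per kb as a share of its subunit class, alpha2 made up 23.6% ± 7.04 of alpha in C, 40.6% ± 26.5 in DOP and 13.99% ± 1.59 in WCOC. In single DOP libraries it was 16.1%, 44.1%, 16.3%, 46.3% and 80.2% in replicates 1 to 5. Beta2 made up 38.8% ± 2.95 of beta in C, 50.2% ± 18.7 in DOP and 37.8% ± 4.17 in WCOC, with 80.3% in DOP replicate 5.

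Gamma3 made up 7.50% ± 12.4 of gamma in C, 26.9% ± 31.6 in DOP and 1.71% ± 1.81 in WCOC, with 77.4% in DOP replicate 5 and 29.6% in control replicate 3. Gamma2 made up 51.9% ± 11.03 of gamma in C and 61.3% ± 6.49 in WCOC, and down to 13.2% in DOP replicate 5. PGC-1 alpha was 1.10% ± 0.372 of both coactivators in C, 4.88% ± 5.15 in DOP and 1.03% ± 0.341 in WCOC. These shares are descriptions of RNA without a test, not of subunit protein or assembled trimers, and they shift with the length used for PRKAG2 and PPARGC1A.

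**Figure D3:**
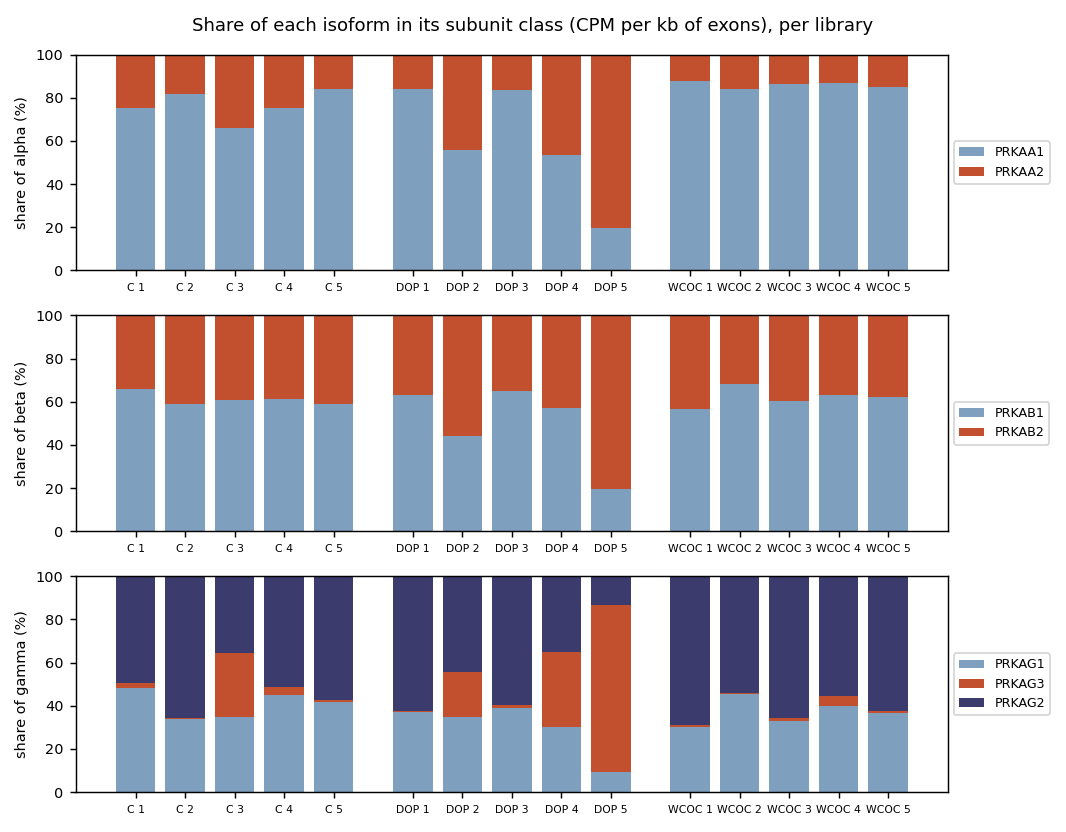
Share in percent of each isoform in the summed CPM per kb of exons of the alpha, beta and gamma subunits, 1 stacked bar per library. In DOP replicate 5 PRKAA2, PRKAB2 and PRKAG3 hold 80.2%, 80.3% and 77.4% of their class, whereas the WCOC libraries hold 12.1% to 16.1% of PRKAA2 and at most 4.91% of PRKAG3.

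Across the 15 libraries, with log2 CPM centred within each diet, PRKAG3 had the closest relation with ACTA1 (Pearson's r = 0.867, permutation p = 0.00048, adjusted p = 0.0400 over 14917 genes). Its Spearman's rho was 0.789 (permutation p = 0.00496, adjusted p = 0.174). It was the 1 member past the limit by r, as were 1.32% of all genes. PRKAA2 had r = 0.771 (permutation p = 0.00412, adjusted p = 0.163), PPARGC1A 0.737 (permutation p = 0.0112, adjusted p = 0.271) and PRKAB2 0.606 (permutation p = 0.0735, adjusted p = 0.505). Their rho was 0.729 (permutation p = 0.0120), 0.596 (permutation p = 0.0493) and 0.418 (permutation p = 0.187), with adjusted p of 0.264, 0.424 and 0.634.

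PRKAG2 had a negative r of −0.552 (permutation p = 0.0236, adjusted p = 0.360) and a rho of −0.664 (permutation p = 0.00701, adjusted p = 0.205). PRKAG1 had r = 0.519, PPARGC1B −0.379, PRKAA1 −0.311, STK11 0.306 and PRKAB1 −0.022, none past the limit. Without DOP replicates 5 and 2, the libraries farthest from the median of ACTA1, r was 0.811 for PRKAG3, 0.702 for PRKAA2, 0.601 for PPARGC1A, 0.361 for PRKAB2 and −0.617 for PRKAG2, with adjusted permutation p of 0.193 for PRKAG3. Within flow cell A alone (permutation over 9 libraries) r was 0.672 for PRKAG3, 0.489 for PRKAA2, −0.033 for PPARGC1A and 0.067 for PRKAB2, and 0 genes passed the limit there. Flow cell A held no DOP library, and its 9 libraries allow few arrangements within diets, so passing the limit there was hardly possible. These r cannot show whether the relation of PPARGC1A and PRKAB2 with ACTA1 holds or fails within flow cell A. The other flow cell held the 5 DOP libraries and 1 control, which leaves 5 libraries once diets are centred, and no r is given for it. There PPARGC1A and PRKAB2 were highest in DOP replicates 2, 4 and 5, as was ACTA1.

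**Figure D4:**
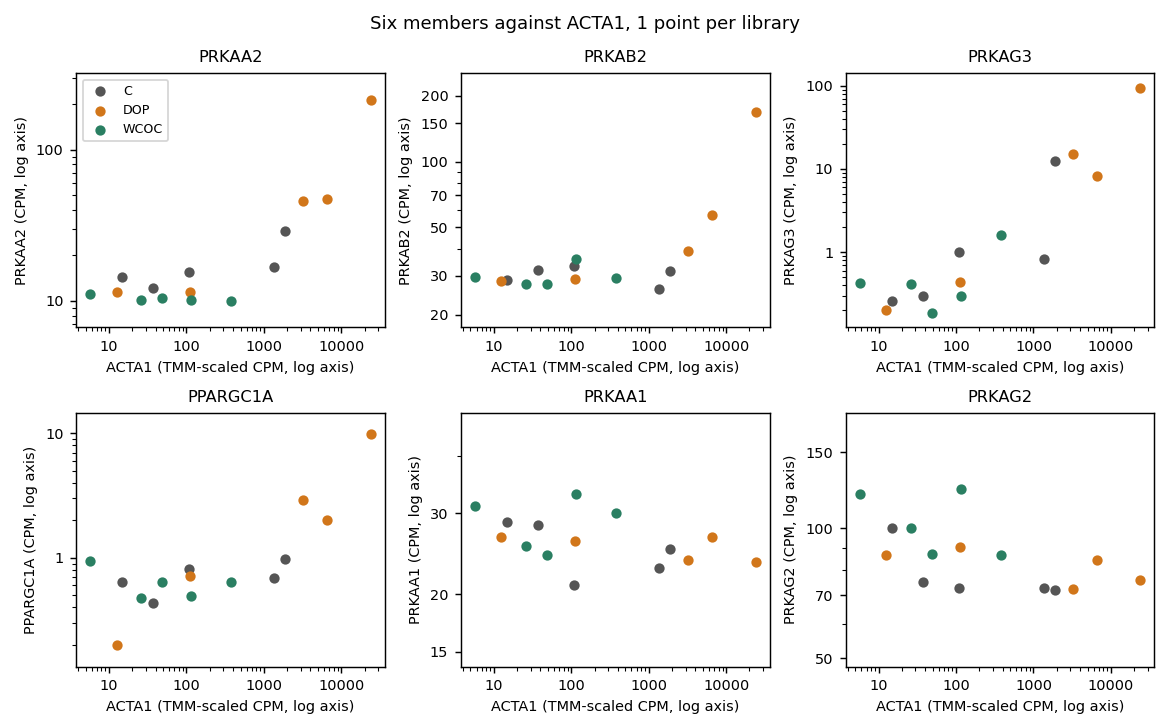
CPM of PRKAA2, PRKAB2, PRKAG3, PPARGC1A, PRKAA1 and PRKAG2 (vertical log axes) against CPM of ACTA1 (horizontal log axis), 1 point per library coloured by diet. All of PRKAA2, PRKAB2, PRKAG3 and PPARGC1A are highest in the DOP library at 23994 CPM of ACTA1, while PRKAG2 is highest where ACTA1 is below 120 CPM.

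The genes whose log2 CPM ran most like each member over the 15 libraries are given as a description. For PRKAA2 they were PFKM, the muscle form of phosphofructokinase (r = 0.983), FEM1A, GYG1, which primes glycogen synthesis, ACSM5 and SEMA4D (0.978). For PRKAG3 they were CDH15, the cadherin of muscle precursor cells (0.976), CA14, CKMT2, the mitochondrial creatine kinase of striated muscle, SRL and ASB10 (0.972). For PRKAB2 they were ECPAS (0.986), DCUN1D2, COPS4, PTGES3L and UBR3 (0.955), and for PPARGC1A they included SYPL2 (0.935), PDE4DIP, NTF4 and RBM38 (0.932). For STK11, which varied little, they were RANBP3 (0.875), MED24, PPP6R2, SPATA2 and CCDC9B (0.835). These values share the libraries and their muscle content.

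Of 83 further genes listed for the pathway, 79 were matched and 77 tested. In DOP vs. C 0 were DEGs by edgeR (0.764% of all genes were), and 17 had an unadjusted p under 0.05, beside 17.6% of all genes. DESeq2 called 2 of them there, CKMT2 and PDK4, both higher, beside 507 of 22840 genes. In WCOC vs. C 2 were DEGs (2.60%, below the 6.25% of all genes), and in WCOC vs. DOP 11 were (14.3%, against 7.76% of all genes), 2 higher and 9 lower in WCOC.

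Among 12 tested inputs of AMPK, ADIPOQ, the hormone adiponectin that acts on AMPK through its receptors, rose from 3691 ± 549 CPM in C to 5849 ± 1353 in WCOC (log2FC 0.66 ± 0.17, adjusted p = 0.0281). It stood at 5493 ± 919 CPM in DOP (log2FC 0.57 ± 0.17 vs. C, adjusted p = 0.126). The receptor gene ADIPOR2 had a log2FC of −0.42 ± 0.14 in WCOC vs. C (adjusted p = 0.0754), and CAMKK2, the calcium-dependent kinase that also phosphorylates alpha, one of 0.42 ± 0.13 (adjusted p = 0.0565). In WCOC vs. DOP, STRADB, a pseudokinase partner of STK11, was the 1 DEG and fell from 63.7 ± 51.7 to 22.6 ± 2.68 CPM (log2FC −1.50 ± 0.39, adjusted p = 0.0261). The receptor gene ADIPOR1 passed the limit on p but not that on size (log2FC −0.35 ± 0.09, adjusted p = 0.0223), and FNIP1 had −0.39 ± 0.14 (adjusted p = 0.0740).

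Of 10 tested AMPK-related kinases that STK11 also activates, NUAK2 was a DEG in WCOC vs. DOP, where it rose from 5.89 ± 1.16 to 9.95 ± 2.01 CPM (log2FC 0.76 ± 0.18, adjusted p = 0.0182). Against C its log2FC was 0.57 ± 0.18 (adjusted p = 0.0599). SNRK had a log2FC of 0.36 ± 0.11 in DOP vs. C (adjusted p = 0.129) and 0.28 ± 0.11 in WCOC vs. C (adjusted p = 0.121). Of 16 tested AMPK substrates 0 were DEGs in any comparison by edgeR, with 2 at an unadjusted p under 0.05 between DOP and C, 4 between WCOC and C and 5 between both olive diets, beside 17.6%, 26.4% and 28.1% of all genes. Hormone-sensitive lipase (LIPE) had the smallest p in WCOC vs. C, at 1363 ± 240 against 1016 ± 166 CPM (log2FC 0.42 ± 0.15, adjusted p = 0.0831). ULK1, the autophagy kinase, had 0.45 ± 0.16 in DOP vs. C (adjusted p = 0.174) and FOXO3 −0.40 ± 0.14 in WCOC vs. DOP (adjusted p = 0.0647).

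Of 24 tested PGC-1 partners and regulators, PRDM16, a regulator of brown and beige fat genes, rose from 5.78 ± 1.64 CPM in DOP to 10.99 ± 3.25 in WCOC (log2FC 0.93 ± 0.26, adjusted p = 0.0333). It was no DEG in 6 of 10 leave-one-out fits, those without DOP replicate 2 or 4 or WCOC replicate 1, 3, 4 or 5 (log2FC 0.77 to 0.98, adjusted p from 0.0505 to 0.0733), with the muscle list as a covariate (0.76, adjusted p = 0.161) or in a fit of DOP and WCOC alone (adjusted p = 0.0512). ESRRA, a nuclear receptor through which both coactivators act, passed the limit on p but not that on size in WCOC vs. C (13.6 ± 2.08 against 19.4 ± 1.74 CPM, log2FC −0.52 ± 0.15, adjusted p = 0.0429). SIRT1, a deacetylase of PGC-1 alpha, had a log2FC of 0.38 ± 0.12 there (adjusted p = 0.0542), and FOXO1 one of 0.32 ± 0.09 in DOP vs. C (adjusted p = 0.108).

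Of 15 tested PGC-1 target genes 8 were lower DEGs in WCOC vs. DOP, beside 5.11% of all genes, and 0 were higher, with a median log2FC of −0.59 against 0.001 over all genes. The count was 2 without DOP replicate 5, 4 without any 1 of WCOC replicates 1, 3, 4 and 5, and 6 to 8 without any 1 of the other 5 libraries, and limma-voom called 4. They included NDUFS1 of respiratory complex I (102.7 ± 30.3 CPM in DOP, 57.4 ± 3.87 in WCOC, log2FC −0.84 ± 0.15, adjusted p = 0.00412), ACADM, which oxidises medium-chain fatty acids (−0.59 ± 0.12, adjusted p = 0.00703), and CYCS, cytochrome c (−0.90 ± 0.22, adjusted p = 0.0215). SOD2, the mitochondrial superoxide dismutase, fell both vs. DOP (−0.71 ± 0.14, adjusted p = 0.00764) and vs. C, from 182.9 ± 26.0 to 119.7 ± 8.96 CPM (−0.61 ± 0.14, adjusted p = 0.0162). IDH3A of the citric acid cycle (−0.58 ± 0.16, adjusted p = 0.0343) and CKMT2 (−5.20 ± 1.37, adjusted p = 0.0263) were lower DEGs vs. DOP as well. PDK4, which spares glucose by blocking pyruvate dehydrogenase, had a log2FC of 1.97 ± 0.46 in DOP vs. C (88.5 ± 33.0 against 22.6 ± 7.41 CPM, adjusted p = 0.0583).

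Several of these target genes are also abundant in muscle, and the count differed in fits that took muscle genes into account. The cause was not tested. With the muscle list as a covariate 1 of the 15, NDUFS1, was a lower DEG in WCOC vs. DOP (adjusted p = 0.0297), beside 443 of 14918 genes called. Without the 5 libraries above 1000 CPM of ACTA1 the count was 0, beside 92 of 15333 genes, and the median log2FC of the 15 was −0.38 (10 libraries). For SOD2 the log2FC vs. C stayed at −0.53 (adjusted p = 0.0137) with that covariate and −0.54 (adjusted p = 0.0370) without those libraries, under the limit on size in both. ADIPOQ remained a DEG vs. C with the covariate (log2FC 0.67, adjusted p = 0.0391) and had 0.63 (adjusted p = 0.182) without those libraries. It was no DEG without control replicate 2 or 3 or WCOC replicate 1 or 5 (log2FC 0.52 to 0.66, adjusted p from 0.0524 to 0.0814), in a fit of C and WCOC alone (0.66, adjusted p = 0.0535) or on flow cell A alone (0.69, adjusted p = 0.0795). STRADB had −0.53 and −0.21 vs. DOP, neither a DEG, and lost its call in 5 of 10 leave-one-out fits, those without DOP replicate 2 or 5 or WCOC replicate 1, 3 or 4 (−0.90 without DOP replicate 5, −1.45 to −1.52 without the others), with limma-voom (adjusted p = 0.0699) and in a fit of DOP and WCOC alone (adjusted p = 0.0575). SOD2 vs. C fell below the limit on size without control replicate 1 or 5 or WCOC replicate 5 (−0.564 to −0.575) and with flow cell as a covariate (−0.574). NUAK2 was a DEG in 10 of 10 leave-one-out fits, but with the covariate its log2FC of 0.72 had an adjusted p of 0.0851, and without those libraries 0.88 had one of 0.168. With flow cell as a covariate 0 of the 77 genes were DEGs in WCOC vs. DOP, in a fit that called 1 of 14918 genes in all, and the median log2FC of the 15 targets was −0.53.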

How the data were processed

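Backfat RNA of 15 pigs (5 per diet) was sequenced as read pairs. The authors aligned the reads, without trimming, to Sscrofa11.1 with HISAT2 set to a stranded protocol and ran HTSeq-count over Ensembl genes. What they deposited are raw counts, 1 file per pig, not normalized or pooled. Neither the strand setting of HTSeq-count nor its gene annotation release is given in the sources used here. Lines for pairs not counted (23.4% to 32.8% of a library) were left out. Between 22373715 and 34745218 counts fell on genes, so a member at 5 counts is read far less precisely than one at 1000.

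Symbols were matched to 14864 of 30477 gene IDs. Genes were kept by filterByExpr (14918), scaled by TMM (factors 0.857 to 1.21) and tested with edgeR 4.0.16 in R 4.3.3 by glmQLFit and glmQLFTest, with 1 mean per diet over all 15 libraries, two-sided, with Benjamini-Hochberg adjustment. The authors' own tool, DESeq2 (1.42.0), was an alternative, beside limma-voom (limma 3.58.1), other scalings and filters, covariates and leaving out each library. Log2 CPM used a prior count of 1. Relations with ACTA1 were tested by 100000 permutations within diets (smallest possible p 1e-05), and adjusted over all genes rather than over the members. In simulated counts with 200 changed genes in DOP vs. C (14838 tested), 66 of 99 genes changed 2-fold and 95 of 101 changed 4-fold were called, beside 6 unchanged ones. Diets and replicate numbers were taken from the labels, and flow cells from run identifiers. The separate pigs of a diet are the replicates. Tables were made with Python 3.11.15.

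The members and all gene lists were chosen with earlier results of these data known. Named are all members and ACTA1, of each pathway list the DEGs (up to 6 by adjusted p) and, where a comparison had fewer than 2, from its 2 smallest unadjusted p, and the 5 genes (mean of at least 1 CPM) most correlated with PRKAA2, PRKAB2, PRKAG3, PPARGC1A and STK11. Of the other marker lists, 13 macrophage genes included 6 lower DEGs in WCOC vs. C, 1 in WCOC vs. DOP and 1 in DOP vs. C; 12 adipocyte genes 2 higher in WCOC vs. C and 2 in WCOC vs. DOP; 9 endothelial genes 1 higher in WCOC vs. C; 5 skin genes 1 higher in WCOC vs. DOP; and 8 smooth muscle genes 0. Protein sequences were not used here, and a few items are not reported here.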

Additional observations from a re-analysis of the deposited data

Results flagged for a closer look

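Of 33 groups of 5 libraries (10 members and ACTA1 in each diet), 10 had a highest library whose gap to the next exceeded Dixon's limit of 0.71 of the group's range. That limit holds for normally distributed values. These CPM values are skewed and the groups share libraries, so the count is a description and is not set against a chance rate. DOP replicate 5 was that library for PRKAA2 (213.4 CPM, next 47.0), PRKAB2 (168.8, next 57.1), PRKAG3 (94.2, next 15.02), PPARGC1A (9.80, next 2.89) and ACTA1 (23994, next 6543), and its muscle list summed to 77322 CPM.

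Control replicate 3 stood apart for PRKAA2 (29.1 CPM, next 16.8) and PRKAG3 (12.6, next 1.01), with 1883 CPM of ACTA1, the most among the controls. WCOC replicate 4 did so for PRKAG3 (1.62 CPM, next 0.424), with 377 CPM of ACTA1, the most in WCOC. Not all of these libraries were high in muscle genes: WCOC replicate 1 stood apart for PRKAB2 (36.0 CPM, next 29.7) at 116 CPM of ACTA1, and control replicate 2 for PRKAG2 (99.9, next 75.1) at 14.9 CPM of ACTA1, the lowest of the controls.

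The WCOC and DOP libraries differed for 3 members by the direct test, with log2FC of −2.66 for PRKAA2, −5.31 for PRKAG3 and −2.29 for PPARGC1A. Diet, pen and flow cell cannot be told apart in this comparison. With the muscle list as a covariate the log2FC was −0.78, −0.14 and −0.27 in the same order. With flow cell as a covariate it was −3.32, −8.93 and −3.15, in a fit that called 1 of 14918 genes in all. The flow cell effect there comes only from control replicate 5 against the other controls.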

How the results depend on the processing

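The count of DEGs among the members in DOP vs. C (0) was 1 with DESeq2, beside 507 of 22840 genes, and 0 in all leave-one-out fits. Many of these fits could hardly call a member. Dropping C replicate 3, C replicate 5, DOP replicate 2 or DOP replicate 4 left 0 DEGs among all genes tested. Dropping DOP replicate 5 left 1, dropping DOP replicate 3 left 4, and the remaining fits called 46 to 200. The replicate block also called 0 genes in this comparison. In WCOC vs. C (0) the count was 1 in a fit of only both diets (766 of 14553 genes called) and 1 on flow cell A alone (486 of 14698). In WCOC vs. DOP (3) the count was 1 with at least 10 counts in every library, beside 941 of 13118 genes. PRKAG3 and PPARGC1A, with 5 counts in their lowest library, were then not tested. The count was 0 with limma-voom (822 of 14918 genes called), the replicate block (561), flow cell as a covariate (1) and the muscle list as a covariate (443). It was also 0 without the libraries over 1000 CPM of ACTA1 (92 of 15333), an alternative chosen after seeing the data. When 1 library was left out it was 1 to 4, in fits that called 639 to 1291 genes. The replicate numbers do not pair the pigs: same-numbered libraries correlated between −0.495 and 0.345 in their deviations, and in 1 of 15 cases did a library correlate best with its own number; under that block PRKAA2, PRKAG3 and PPARGC1A had adjusted p of 0.0946, 0.127 and 0.192, the PGC-1 targets called lower in WCOC vs. DOP went from 8 to 3, and ADIPOQ (vs. C, adjusted p = 0.0812), STRADB (0.0825) and PRDM16 (0.0878, both vs. DOP) lost their calls.

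Signs turned in DOP vs. C for PRKAA1 with flow cell as a covariate (−0.16) and with only both diets (−0.0044), PRKAB1 with only both diets (−0.0042), PRKAG1 with flow cell (0.11), and without the high ACTA1 libraries for PRKAA2 (−0.30), PRKAB2 (−0.13), PRKAG3 (−0.69), STK11 (−0.0069) and PPARGC1A (−0.43). In WCOC vs. C they turned for PRKAB2 with the replicate block (0.011), flow cell (0.0039) and the muscle list (0.18), PRKAG1 with the muscle list (0.045) and without the high ACTA1 libraries (0.12), PRKAG3 without them (0.18), and PPARGC1A with the muscle list (0.42) and without them (0.013). In WCOC vs. DOP they turned for PRKAB1 with flow cell (−0.045) and without the high ACTA1 libraries (−0.051), PRKAB2 without them (0.062), PRKAG1 with flow cell (−0.16), PRKAG3 (0.87) and PPARGC1A (0.44) without them, STK11 with the muscle list (0.0059) and without them (0.026), and PPARGC1B with flow cell (−0.098), the muscle list (−0.080) and without them (−0.12). Leaving out 1 library gave ranges across 0 for PRKAA1 (−0.054 to 0.059) and PRKAB1 (−0.042 to 0.054) in DOP vs. C, PRKAB1 (−0.031 to 0.083), PRKAB2 (−0.088 to 0.014), PRKAG1 (−0.084 to 0.036) and PPARGC1B (−0.17 to 0.044) in WCOC vs. C, and PRKAB1 (−0.033 to 0.082), STK11 (−0.054 to 0.018) and PPARGC1B (−0.059 to 0.19) in WCOC vs. DOP. The cause was not tested.

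The r with ACTA1 passed the limit without centring within diets for PRKAA2 (0.832), PRKAB2 (0.685) and PPARGC1A (0.785). For PRKAG3 it missed it without the 2 farthest libraries (0.811) and on flow cell A alone (0.672). The r of PRKAB1 turned to 0.459 and 0.477 in these settings, and that of PPARGC1A to −0.033 on flow cell A. The few libraries of flow cell A made passing the limit hardly possible for any gene. With the longest transcript the share of PRKAG2 was 64.2% in C and 72.6% in WCOC, and that of PPARGC1A 1.93% and 1.80%. Depth limits PRKAG3 and PPARGC1A, whose lowest libraries held 5 counts.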
